A study of Mus musculus with 6 samples.

Results

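Known long noncoding RNA (lncRNA) genes were described in 2H-11 and SVEC4-10, a pair of mouse endothelial cell lines. The members were all 244 genes that the authors' table types as a known lncRNA gene, of 34724 genes in all. That rule uses the authors' gene type and sets no threshold on a measured value. Whether the authors' typing needed reads in these libraries is not given in the sources used here. Both lines came from C3H/HeJ mice. Each is labelled as SV40-transformed cells of axillary lymph node vessels, with 2H-11 as the tumor endothelial and SVEC4-10 as the normal endothelial line. Neither received a treatment that the labels name. Each line was represented by 3 direct RNA nanopore libraries, in which native RNA molecules are read without conversion to cDNA. Each group is 1 established line, so a difference between them is a difference between these lines. Whether the replicate libraries were grown as independent cultures is not stated, so the p-values may reflect technical spread alone.

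A lncRNA is a transcript that is made and often spliced like a messenger RNA but has no long conserved reading frame. Some are hosts: their introns carry small nucleolar RNAs (snoRNAs), which guide the modification of ribosomal and spliceosomal RNA, or microRNAs, which repress messenger RNAs through a short seed. Others start head to head with a protein-coding gene, share its promoter region, or run antisense across it, and a few act at the locus where they are made.

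The library totals ran from 3628400 to 16798666 counts, and SVEC4-10 replicate 3 was the deepest, at 4.63 times the smallest. The endothelial label was not borne out by marker genes in either line. Of 12 pan-endothelial markers, 6 had no count in any library (Vwf, Tie1, Cldn5, Erg, Emcn and Icam2), and 11 were under 1 CPM (a library's counts scaled to a common total of 1e6) in all 6. Their summed level was 5.12 to 7.04 CPM in the 2H-11 libraries and 1.17 to 1.43 CPM in SVEC4-10. The 6 mesothelial markers summed to 41.5 to 45.1 CPM in 2H-11, while SVEC4-10 had 3400 to 4290 CPM. The 8 fibroblast and mural markers summed to 1560 to 2050 CPM and 1300 to 1620 CPM, and the 4 leukocyte markers to at most 2.44 and 3.58 CPM. The part of these marker differences in the lncRNA differences was not tested.

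The identity of the members came from the symbol column of the table. It tied 178 of the 244 to an Ensembl gene, and the other 66 carried only an identifier of NONCODE, a catalogue of noncoding transcripts. In GENCODE M21, on build GRCm38, the 178 were typed as antisense (59), processed transcript (56), lincRNA (51) or bidirectional promoter lncRNA (12). They had a median of 3 exons in the transcript with most exons, and a median longest transcript of 1121 bases. A member was called a snoRNA host if an annotated snoRNA or scaRNA lay within it on its strand, which held for 22. The types are those of GENCODE, which types Mir3096, Mir1839 and Mir5117 as snoRNA or scaRNA despite their microRNA symbols. Mir3096 is the only such gene within AI506816, Mir1839 the only one within 2900076A07Rik, and Mir5117 is 1 of 10 within Gas5. RefSeq gives the mature mmu-miR-1839-5p within 2900076A07Rik, so this member is counted below as a microRNA host too. A further 73 had a transcription start within 1000 bases of the start of a protein-coding gene on the other strand. Another 30 overlapped a protein-coding gene on the other strand, and 53 had none of these features. Members Trmt61b and Ptpmt1 carry symbols of protein-coding genes, but their Ensembl genes are of the antisense and processed transcript types.

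All 244 members had at least 1 count, against 14699 of 22036 genes typed as known, and 181 had a count in every library. If the authors' typing needed reads here, a count in some library was fixed in advance. The members' median level over the 6 libraries was 2.49 CPM. In all, 171 reached 1 CPM on average, 48 reached 10 CPM and 9 reached 100 CPM. Together the members took 0.395%, 0.457% and 0.467% of the counts in 2H-11 replicates 1 to 3, and 0.331%, 0.305% and 0.358% in SVEC4-10. Their summed level was 4396 ± 393 CPM (SD, n = 3) in 2H-11 and 3311 ± 267 CPM (SD, n = 3) in SVEC4-10. All 2H-11 libraries were above all SVEC4-10 libraries, by a ratio of 1.33. In such bulk libraries, fewer expressing cells and less RNA per cell cannot be told apart. The exact two-sided permutation p was 0.1, the smallest that 3 libraries against 3 can give. The number of members with a count per library was 220 to 227 in 2H-11 and 218 to 235 in SVEC4-10, highest in the deepest library. After all libraries were thinned to 3628400 counts it was 218 to 221 and 215 to 226.

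A few members held most of the counts. The 10 most abundant had 55.8% of all member counts, and 8 of these were snoRNA hosts: 1110038B12Rik, Gas5, 2410006H16Rik, AI506816, Snhg1, Zfas1, Snhg8 and AA465934. The remaining ones were the NONCODE loci NONMMUG020673 and NONMMUG005081. Per kilobase of the longest annotated transcript, 2410006H16Rik had the highest level, 594 CPM per kilobase over the 6 libraries. It was followed by 1110038B12Rik at 465, AA465934 at 228, Snhg8 at 206 and Gas5 at 136 CPM per kilobase. In direct RNA libraries a read stands for 1 molecule, so values per kilobase do not rank the members by number of molecules. By CPM, 1110038B12Rik was the most abundant, at 434 CPM, followed by Gas5 and 2410006H16Rik.

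The lines were compared with edgeR's quasi-likelihood test across all genes. A gene was called if its Benjamini-Hochberg adjusted p over all genes tested was under 0.05. Fold changes are log2 values of 2H-11 over SVEC4-10, each with its standard error (SE). Enough counts for the test were found for 136 members. Of these, 42 were higher and 18 lower in 2H-11, which is 44.1% of those tested, against 36.2% of all 13187 genes tested. The higher calls made up 30.9% of the members tested and 20.1% of all genes tested, and the lower calls 13.2% and 16.2%. Among the genes that the authors type as known, 13% were higher and 18.8% lower. Among the genes that the authors type as new, 44.5% were higher and 6.57% lower. The 69 new lncRNA genes tested had 33.3% higher and 31.9% lower. The median log2 fold change was 0.38 over the members tested and 0.00 over all genes. The members' median was also 0.38 with Gm30074, which had no count in SVEC4-10, set at its lower bound. A difference of 2-fold or more was called for 30 members upward and 14 downward, 32.4% of those tested against 24.9% of all genes. The 6 libraries split by line with no overlap for 81 members, 59.6% of those tested against 46.8% of all genes, and the 60 called members were all among them. With scaling factors from Ensembl identifiers alone, the median of all genes moved to 0.11, the members' median to 0.50 and the calls to 47 higher and 15 lower.

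**Figure D1:**
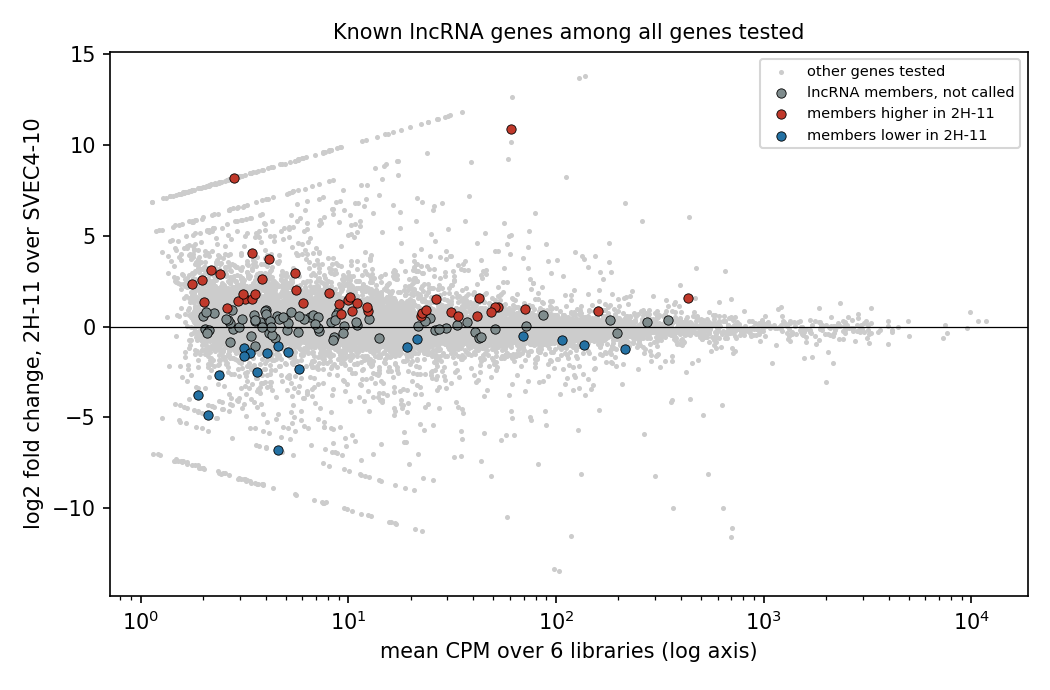
Mean level over the 6 libraries (CPM, log axis) against the log2 fold change of 2H-11 over SVEC4-10 for every gene tested; each point is a gene, with the lncRNA members in red (42 higher), blue (18 lower) and dark grey (not called). Most called members lie within the cloud of all genes, and 3300005D01Rik is the highest member; fitted values of genes with few counts in a line depend on the prior count.

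The snoRNA hosts were the most abundant class, with 63.5% of all member counts and a median of 51.9 CPM. Many genes of the translation machinery, snoRNA hosts among them, begin with a run of pyrimidines called a terminal oligopyrimidine tract, through which nutrient signalling controls their translation. The starts of hosts that rose (1110038B12Rik, Rab26os, Snhg8, Snhg10, Snhg12 and Dancr) and of hosts that fell (Snhg5 and AA465934) are shown. Pyrimidine runs near the start are marked. The starts of Snhg1 and Gas5, abundant hosts that were not called, stand beside them. Each is 40 bases of the RefSeq promoter table on GRCm38.p6, 5′ to 3′ on the gene's strand, with 12 bases before and 28 from the RefSeq start. Capitals mark the longest run of at least 6 C or T that begins within 10 bases of the start. A marked run need not be a terminal tract. That of Snhg10 lies wholly before the RefSeq start, and those of Snhg5 and Snhg1 begin after it. Dancr is the host among those that rose whose window holds no marked run. Gas5 has a further window, at another start, without a run, and 1110038B12Rik has a further window with one. Their positions are, in the same order, chr17:34952444-34952483 (minus), chr17:24528239-24528278 (plus), chr3:123508309-123508348 (minus), chr12:105032252-105032291 (minus), chr4:132308666-132308705 (plus), chr5:74093048-74093087 (plus), chr9:88522870-88522909 (minus), chr11:83291687-83291726 (plus), chr19:8723475-8723514 (plus) and chr1:161035154-161035193 (plus).
1110038B12Rik: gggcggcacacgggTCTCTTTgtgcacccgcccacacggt
Rab26os: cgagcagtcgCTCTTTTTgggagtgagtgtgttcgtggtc
Snhg8: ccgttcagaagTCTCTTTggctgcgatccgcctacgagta
Snhg10: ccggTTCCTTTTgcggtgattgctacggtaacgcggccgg
Snhg12: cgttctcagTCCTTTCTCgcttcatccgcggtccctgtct
Dancr: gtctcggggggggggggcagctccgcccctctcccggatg
Snhg5: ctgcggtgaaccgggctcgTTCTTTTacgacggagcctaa
AA465934: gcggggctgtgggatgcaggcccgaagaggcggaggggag
Snhg1: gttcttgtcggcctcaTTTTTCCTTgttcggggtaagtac
Gas5: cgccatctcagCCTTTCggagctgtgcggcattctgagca
Such a run was found in 16 of 24 RefSeq windows of the hosts (66.7%, in 15 of 20 hosts with a window), in 31.8% of the windows of all members and in 23.1% of all 32851 windows. This rule was the second one tried. A narrower first rule, a C with no pyrimidine before it and at least 4 pyrimidines after it, was met by 25% of the host windows and 22.9% of all windows. Of the hosts with a window, 6 of 7 that were higher and 2 of 3 that were lower had a run, so hosts of both directions had one.

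Of the 22 hosts, 21 were tested, and 8 rose (38.1%) and 3 fell (14.3%) in 2H-11, against 20.1% and 16.2% of all genes tested. The largest in level was 1110038B12Rik, which holds 2 annotated snoRNAs. It was at 551, 696 and 731 CPM in the 2H-11 libraries and at 179, 206 and 241 CPM in SVEC4-10. The lowest 2H-11 library was above the highest SVEC4-10 library. The log2 difference was 1.56 (SE 0.18, edgeR adjusted p = 1.7e-06). This 1 gene supplied 10.3% of all member counts. Without it the summed levels were 3737 ± 297 CPM for 2H-11 against 3102 ± 250 CPM for SVEC4-10 (SD, n = 3 each), and their ratio was 1.2.

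Rab26os, antisense to the small GTPase gene Rab26, had 46.5, 69.2 and 79.0 CPM in 2H-11 against 14.7, 22 and 23.8 CPM (log2 1.57, SE 0.25, edgeR adjusted p = 6.96e-05). Snhg10 had 13.1 ± 2.07 against 5.02 ± 0.60 CPM (log2 1.26), and Epb41l4aos had 73.1 ± 7.61 against 32.4 ± 7.58 CPM (log2 1.06). Snhg8 had 157, 220 and 252 CPM in the 2H-11 libraries and 106 to 115 CPM in SVEC4-10 (log2 0.85, SE 0.19, edgeR adjusted p = 0.00194). These hosts were higher in all 3 libraries of 2H-11. Dancr, a lncRNA known to restrain differentiation of progenitor cells, rose by 0.75 and Snhg12 by 0.58 on the log2 scale. The call of Dancr was lost without 2H-11 replicate 3 (adjusted p = 0.0706). That of Snhg12 was lost without 2H-11 replicate 2 or 3 or SVEC4-10 replicate 1 or 2 (adjusted p = 0.0605 to 0.126), and with no filter on low counts (0.0917).

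Of the hosts that fell, AA465934 had 65.3, 82.8 and 99.9 CPM in 2H-11, while SVEC4-10 had 116, 136 and 142 CPM (log2 -0.76, SE 0.19, edgeR adjusted p = 0.00448). Snhg5 had 49.8 to 65.0 CPM against 65.2 to 91.9 CPM (log2 -0.54, adjusted p = 0.0416), and the groups came within 1 CPM of each other. Its call was lost when any library other than SVEC4-10 replicate 1 was left out (adjusted p = 0.0566 to 0.133). It was also lost with a replicate block (0.0773), with library size alone (0.0944) and with scaling factors from Ensembl identifiers (0.0922). AI506816 is described below with 2700038G22Rik.

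The hosts that were not called included some of the most abundant, and a few of them were called in other settings. Gas5, a growth arrest lncRNA with 10 annotated snoRNAs, had 360, 416 and 428 CPM in the 2H-11 libraries and 272, 277 and 330 CPM in SVEC4-10. Its groups did not overlap, but the log2 difference of 0.36 (SE 0.16) had an edgeR adjusted p of 0.0954. Gas5 and Zfas1 were called in 2 of 17 other settings each, with library size alone and with factors from Ensembl identifiers. Zfas1 had 212 ± 22.3 against 153 ± 21 CPM (adjusted p = 0.0982), and 2410006H16Rik had 307 ± 38.3 against 241 ± 13.5 CPM (adjusted p = 0.24). Snhg1, with 8 annotated snoRNAs, had 181 ± 18.8 against 213 ± 42.0 CPM, and Snhg17 had 35.3 ± 4.74 against 49.7 ± 17.8 CPM (adjusted p = 0.174 and 0.0576). Snhg1 was called in 1 other setting, without SVEC4-10 replicate 1 (log2 -0.57, adjusted p = 0.0204). Snhg17 was called in 3, among them the one without SVEC4-10 replicate 1 (log2 -0.90, adjusted p = 0.00462). For Snhg6, Snhg15, Snhg18, Snhg20 and 2900076A07Rik the log2 difference lay between -0.14 and 0.23. The host 9330159M07Rik, at 1.25 ± 0.59 and 1.02 ± 0.08 CPM, had too few counts for the test. Summed over the class, the hosts stood at 2765 ± 279 CPM in 2H-11, while SVEC4-10 had 2088 ± 203 CPM (SD, n = 3 each).

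**Figure D2:**
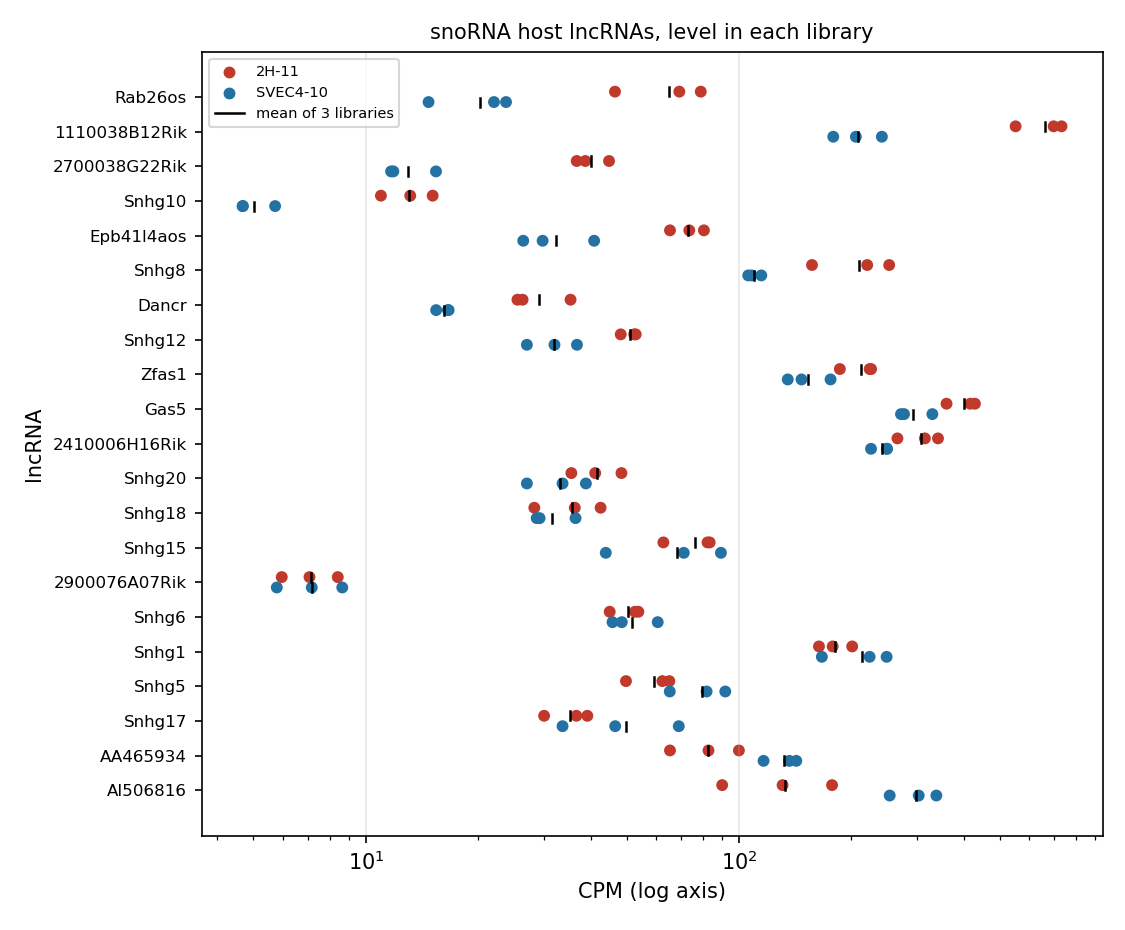
Level of the 21 tested snoRNA host lncRNAs in each library (CPM, log axis), ordered by fold change, with 2H-11 in red, SVEC4-10 in blue and the mean of 3 libraries as a black bar. 1110038B12Rik runs from 551 to 731 CPM in 2H-11 and from 179 to 241 CPM in SVEC4-10, while hosts in the middle of the order overlap.

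The hosts AI506816 and 2700038G22Rik share near-identical start regions and part of their transcripts, in inverted orientation on chromosome 5. In GENCODE M21, AI506816 lies at chr5:23698296-23712667 (minus) and 2700038G22Rik at chr5:23850597-23855038 (plus), and each holds 1 gene typed as snoRNA, Mir3096 and Snord93. Their promoter and start regions are printed because reads of such a pair can be hard to assign. They are 200 bases of RefSeq sequence on GRCm38.p6, at chr5:23712618-23712817 (minus) and chr5:23850446-23850645 (plus), and capitals mark the bases that differ.
AI506816: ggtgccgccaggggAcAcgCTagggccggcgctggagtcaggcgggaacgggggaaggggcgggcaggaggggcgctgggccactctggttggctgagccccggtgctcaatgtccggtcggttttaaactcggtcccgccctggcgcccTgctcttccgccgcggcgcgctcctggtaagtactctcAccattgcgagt
2700038G22Rik: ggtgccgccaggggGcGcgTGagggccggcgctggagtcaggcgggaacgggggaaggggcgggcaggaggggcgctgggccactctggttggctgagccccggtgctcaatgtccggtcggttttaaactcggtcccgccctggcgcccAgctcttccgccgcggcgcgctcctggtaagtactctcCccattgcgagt
The windows differed at 6 of 200 bases (97% identical). The annotated transcripts were 95.4% identical over 347 bases, which is 25.2% of a 1375-base transcript of 2700038G22Rik and all of a 345-base transcript of AI506816. The longest AI506816 transcript, of 2804 bases, also matched parts of Apobec3 (98.1% over 463 bases), Chd9, Gm26880, Gm42031 and Gm43305. The 2 genes went in opposite directions. AI506816 had 177, 131 and 90.1 CPM in the 2H-11 libraries and 338, 253 and 303 CPM in SVEC4-10 (log2 -1.26, SE 0.20, edgeR adjusted p = 7.42e-05). 2700038G22Rik had 44.8, 38.7 and 36.7 CPM in 2H-11, while SVEC4-10 had 11.7, 11.9 and 15.4 CPM (log2 1.5, SE 0.22, edgeR adjusted p = 2.46e-05). Of the counts of the pair, 2700038G22Rik took 20.2%, 22.8% and 29% in 2H-11 and 3.34%, 4.47% and 4.84% in SVEC4-10. The sum of the pair was 173 ± 47.8 CPM in the 2H-11 libraries and 311 ± 42.6 CPM in SVEC4-10, with no overlap (exact two-sided permutation p = 0.1, the smallest possible). How the authors' counting assigned reads among such matches is not given in the sources used here, so each gene's own value is uncertain. In all, a match of at least 300 bases and 95% identity to another gene was found for 7 members, the others being 9330159M07Rik, Gm32857, Gm4117, 5430405H02Rik and Meg3.

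**Figure D3:**
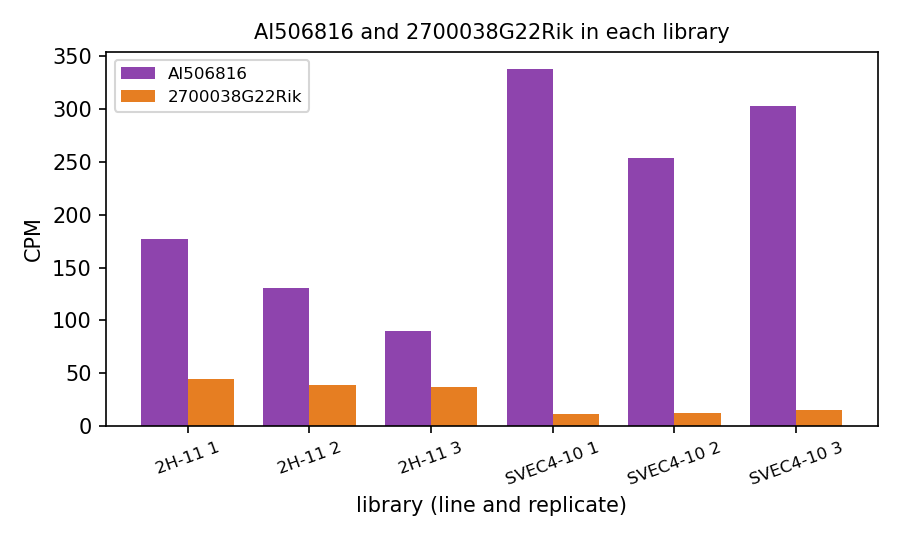
Level (CPM, linear axis from 0) of AI506816 and 2700038G22Rik in each of the 6 libraries, 1 bar per gene and library. AI506816 is lower and 2700038G22Rik higher in every 2H-11 library, and 2700038G22Rik takes 20.2% to 29% of the pair's counts there against 3.34% to 4.84% in SVEC4-10.

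Several members are annotated hosts of microRNAs, and 2 that were called are shown with mature sequences from RefSeq (GRCm38.p6). Mir22hg, at chr11:75461539-75466676 (plus), is the primary transcript of miR-22. 3110039I08Rik, at chr9:41327077-41716994 (plus), contains Mir100, Mirlet7a-2 and Mir125b-1. Capitals mark the seed, bases 2 to 8.
mmu-miR-22-3p: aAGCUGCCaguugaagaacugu
mmu-miR-22-5p: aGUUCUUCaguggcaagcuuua
mmu-miR-100-5p: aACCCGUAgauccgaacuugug
mmu-miR-125b-5p: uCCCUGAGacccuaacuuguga
mmu-let-7a-2-3p: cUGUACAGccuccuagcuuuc
The 15 mature microRNAs found in RefSeq for 6 host members had 15 different seeds. For let-7a-2 the lookup returned only the 3p strand, so its 5p strand and that strand's seed are not among them. The host of miR-22 fell in 2H-11. It had 12.0, 12.1 and 13.6 CPM there and 24.7, 25.7 and 27.6 CPM in SVEC4-10 (log2 -1.14, SE 0.22, edgeR adjusted p = 0.000523). The host of miR-100, let-7a-2 and miR-125b-1 rose. It had 2.23, 3.65 and 5.84 CPM in 2H-11, while SVEC4-10 had 0.36, 0.47 and 0.55 CPM (log2 3.11, SE 0.53, edgeR adjusted p = 0.00013). Neither pair of groups overlapped. Mature microRNAs were not analysed here, so these are levels of the host transcripts. Meg3, an imprinted lncRNA that holds Mir770 and Mir1906-1, had 0.69, 2.44 and 4.28 CPM in the 2H-11 libraries and 0, 0.06 and 0.23 CPM in SVEC4-10. It did not reach the count needed for the test.

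The member with the clearest line restriction was 3300005D01Rik, a lincRNA at chr17:5798657-5803240 (plus) with a longest transcript of 1174 bases. It had 111, 120 and 131 CPM in 2H-11, where it was among the more abundant members, and 1856 counts in all. In SVEC4-10 it had 1 count, in replicate 2, and none without that library. With counts and totals summed over the libraries of each line, which gives deeper libraries more weight, the ratio was 2996. Its exact 95% interval of 537 to 118400 covers counting error only (edgeR adjusted p = 4.27e-12). The nearest protein-coding gene, Snx9, a sorting nexin of endocytosis, lies 38089 bases away and was 76.9 ± 6.27 against 36.7 ± 10.9 CPM (log2 0.95, edgeR adjusted p = 0.00164). The RefSeq promoter window of 3300005D01Rik is printed because no other tested member differed as much. It spans chr17:5798407-5798706 (plus, GRCm38.p6), and capitals mark TGACTCA, the AP-1 motif, and CACGTG, an E-box.
3300005D01Rik: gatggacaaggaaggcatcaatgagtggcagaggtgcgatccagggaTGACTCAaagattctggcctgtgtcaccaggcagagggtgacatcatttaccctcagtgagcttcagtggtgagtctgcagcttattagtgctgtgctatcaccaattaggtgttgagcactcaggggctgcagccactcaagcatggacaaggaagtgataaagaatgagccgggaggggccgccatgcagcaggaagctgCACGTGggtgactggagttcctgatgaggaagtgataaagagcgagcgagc
On both strands, TGACTCA was found in 5.2% and CACGTG in 7.15% of all 32851 RefSeq windows of this length. A match is a description of the letters and not a binding site.

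Other members with a marked increase were expressed at a few CPM. Gm30074, at chr3:52172162-52179972 (minus), had 3.53, 4.38 and 8.93 CPM in 2H-11 and no count in SVEC4-10. Against a limit of 3 counts over the SVEC4-10 libraries it was at least 46.2-fold higher (edgeR adjusted p = 2.94e-06), or at least 14.8-fold without SVEC4-10 replicate 3. 2810468N07Rik, which starts head to head with the transcription factor gene Sox8, had 6.59 ± 1.28 against 0.32 ± 0.29 CPM (log2 4.06, SE 0.52). Sox8 itself was at 0.24 ± 0.21 and 0.02 ± 0.03 CPM and was not tested. BC065403 had 7.87 ± 1.72 against 0.47 ± 0.19 CPM (log2 3.72), and the gene it runs antisense to, Zfp280d, was not called (log2 -0.19, edgeR adjusted p = 0.647). D5Ertd605e had 9.27, 9.86 and 10.5 CPM against 1.10, 1.13 and 1.40 CPM (log2 2.94, SE 0.35, edgeR adjusted p = 2.57e-06). Gm15706 had 4.46 ± 0.97 against 0.37 ± 0.43 CPM (log2 2.89, or 4.75 without SVEC4-10 replicate 3). None of these groups overlapped between the lines.

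In the other direction, AI662270, a processed transcript at chr11:83223576-83226604 (plus), had 1 count in 2H-11, in replicate 3 and none without that library, and 207 counts in SVEC4-10. Its SVEC4-10 libraries stood at 9.35, 10.2 and 7.74 CPM. The ratio from summed counts and totals, SVEC4-10 over 2H-11, was 128 with an exact 95% interval of 22.8 to 5090 (edgeR adjusted p = 1.15e-07). For Gm32857, 107 counts in SVEC4-10 stood against 2 in 2H-11, both in replicate 1. Its ratio, formed in the same way, was 33.2 with an interval of 8.96 to 277. It has near copies elsewhere in the genome, some of them protein coding, so its counts are uncertain. Trmt61b had 1.54, 2.19 and 2.23 CPM in 2H-11, while SVEC4-10 had 8.69, 9.65 and 10.5 CPM (log2 -2.36, SE 0.34, edgeR adjusted p = 1.92e-05). NONMMUG012707, NONMMUG012736 and NONMMUG021602 were lower by -3.75, -2.69 and -2.48 on the log2 scale, with the first at -4.94 without 2H-11 replicate 3. NONMMUG045579 had 1.81 ± 0.54 against 4.93 ± 1.97 CPM (log2 -1.48), and its call was lost without SVEC4-10 replicate 1 (adjusted p = 0.0549).

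**Figure D4:**
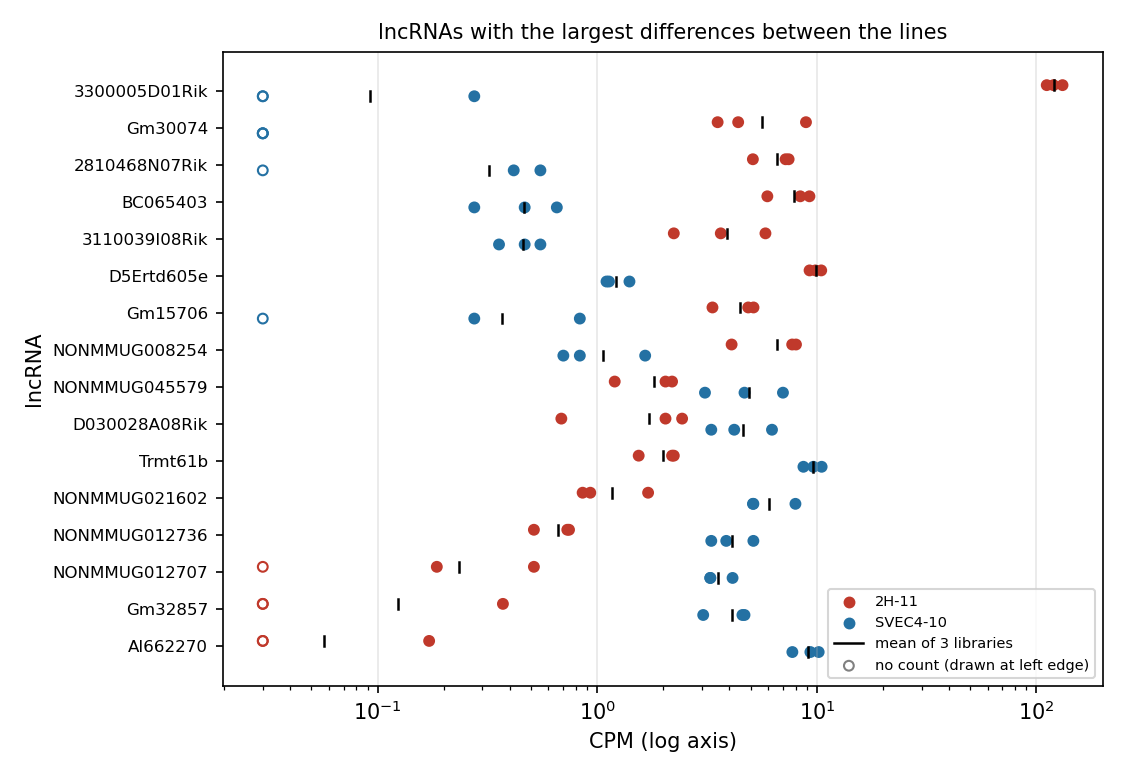
Level in each library (CPM, log axis) of the 8 members that rose most and the 8 that fell most in 2H-11, among those called with no overlap between lines and at least 2 CPM in the higher line; red is 2H-11, blue SVEC4-10, bars are means of 3 libraries and open points at the left edge had no count. 3300005D01Rik lies at 111 to 131 CPM in 2H-11, and the other genes shown are at about 10 CPM or below.

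Members with at least 20 counts in 1 line and none in the other numbered 10. Those seen in 2H-11 were Gm30074, NONMMUG033498, Gm36377, Gm49490 and Gm16006, and those seen in SVEC4-10 were Gm15498, Gm15222, NONMMUG004623, NONMMUG028369 and NONMMUG019344. Apart from Gm30074 they had 1.19 to 2.71 CPM in the line where they were seen and were not tested. For Gm15498, with 15, 6 and 50 counts in SVEC4-10, the level in 2H-11 was at least 13.8-fold lower, or at least 8.57-fold without 2H-11 replicate 3. The upper limit set by a count of 0, which reflects counting error alone, was 0.196 CPM for the 2H-11 libraries together and 0.121 CPM for those of SVEC4-10. Of all members, 10 had no count in 2H-11 and 7 had none in SVEC4-10. In all, 108 members were not tested. Of these, 73 were under 1 CPM on average and the highest was at 2.32 CPM.

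Among members that start head to head with a protein-coding gene but hold no snoRNA, 48 of 73 were tested, and 10 rose (20.8%) and 1 fell (2.08%), against 20.1% and 16.2% of all genes tested. Counting snoRNA hosts too, 79 head-to-head pairs were found, and in 49 both genes were tested. In these pairs the lncRNA was called in 11 and the protein-coding gene in 11, but both in 2. Rab26os and Traf7, a gene of a ubiquitin ligase of tumor necrosis factor signalling, were both higher. Traf7 had 75.6 ± 5.82 against 39.2 ± 7.12 CPM (log2 0.86, edgeR adjusted p = 0.00147). D030028A08Rik and Cdk5rap3, a gene of the UFM1 conjugation pathway, were both lower. The lncRNA had 0.69, 2.05 and 2.44 CPM in the 2H-11 libraries and 3.31, 4.21 and 6.25 CPM in SVEC4-10 (log2 -1.62). Cdk5rap3 had 47.7 ± 3 against 119 ± 32.6 CPM (log2 -1.40, edgeR adjusted p = 1.7e-05). Without SVEC4-10 replicate 3 the call of D030028A08Rik was lost (adjusted p = 0.081). For comparison, 783 head-to-head pairs of protein-coding genes were tested. The first gene was called in 159, the second in 177 and both in 57, of which 51 went the same way. Across pairs the correlation of the log2 differences was 0.34 for the lncRNA pairs and 0.18 for the protein-coding pairs, given as a description, since pairs share the 6 libraries.

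In the other called pairs, only 1 gene passed the test. Gm17501 starts 331 bases from Ccn1, a matricellular gene of the YAP response. Ccn1 fell, with 158 ± 27 against 225 ± 27.8 CPM (log2 -0.61, edgeR adjusted p = 0.0131). Gm17501 had 22.6 ± 1.53 against 20.6 ± 8.77 CPM (log2 0.04, edgeR adjusted p = 0.94), and its sign changed in other settings. Snhg1 starts 106 bases from Slc3a2, an amino acid transporter gene, which fell by 0.81 on the log2 scale (edgeR adjusted p = 0.00247), while Snhg1 was not called. Gm42067 rose, with 10.0, 15.6 and 19.1 CPM against 4.67 to 5.54 CPM (log2 1.45), while Dpf2, a chromatin remodelling gene, was not called (log2 -0.37, edgeR adjusted p = 0.101). 2610020C07Rik rose by 1.5 on the log2 scale, with Rsl1d1 at -0.48 (edgeR adjusted p = 0.0585). The call of 2610020C07Rik was lost without 2H-11 replicate 3 or SVEC4-10 replicate 3 (adjusted p = 0.0745 and 0.055).

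**Figure D5:**
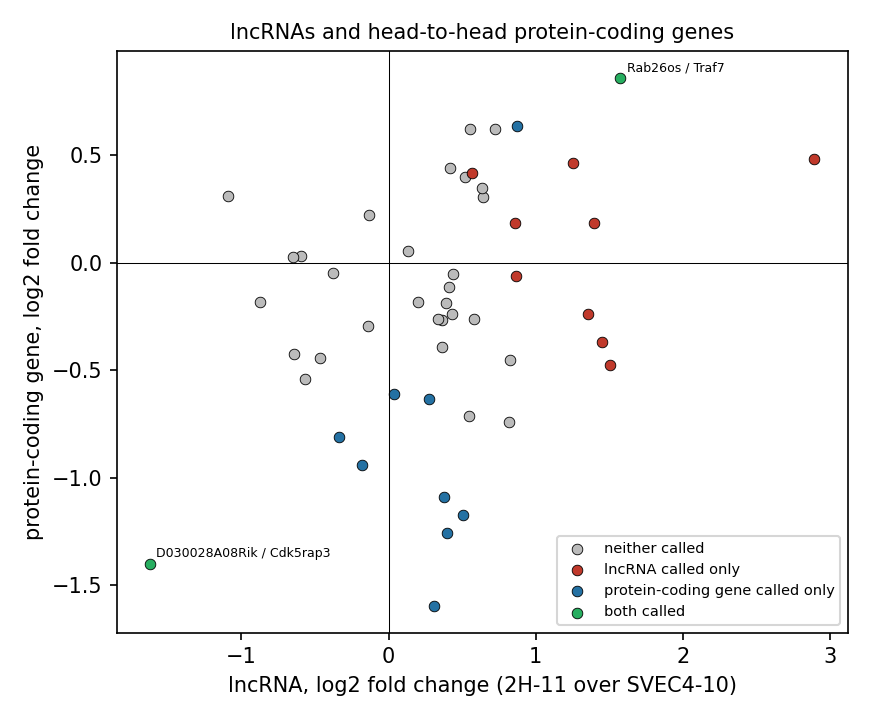
Log2 fold change of 2H-11 over SVEC4-10 for the lncRNA (horizontal axis) and for its head-to-head protein-coding gene (vertical axis) in the 49 pairs with both genes tested; colours show which gene of a pair was called. The 2 pairs with both called are Rab26os with Traf7 (upper right) and D030028A08Rik with Cdk5rap3 (lower left).

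Of the members that overlap a protein-coding gene on the other strand and belong to neither class above, 16 of 30 were tested, and 6 rose (37.5%) and 3 fell (18.8%), against 20.1% and 16.2% of all genes tested. Whether the authors' counting used strand is not given in the sources used here, so reads of overlapping partners may not be told apart. Over all classes, 23 antisense pairs had both genes tested, and in 3 both were called. Gm19412 rose while Tapbp, which loads peptide onto class I molecules, fell. The lncRNA had 8.19, 9.61 and 9.99 CPM in 2H-11, while SVEC4-10 had 1.64, 1.93 and 2.44 CPM (log2 2.03, SE 0.34, edgeR adjusted p = 9.66e-05). Tapbp had 28.7 ± 3.86 against 129 ± 22.9 CPM (log2 -2.25, edgeR adjusted p = 5.48e-08). 1110046J04Rik and the serpin gene Serpinb6a both rose, by 1.62 and 0.50 on the log2 scale. Runx2os1 had 4.63, 5.77 and 6.87 CPM against 0.83, 1.17 and 2.08 CPM (log2 1.79, SE 0.40, edgeR adjusted p = 0.00162), while Runx2, a bone transcription factor gene, had 4.92 ± 0.88 against 2.5 ± 0.41 CPM and was not called (edgeR adjusted p = 0.0838). Airn, which silences Igf2r in cis on the paternal chromosome, had 0.17, 0.97 and 1.12 CPM in the 2H-11 libraries and 1.93, 2.26 and 2.57 CPM in SVEC4-10. It was not tested, and Igf2r was higher in 2H-11 (23.8 ± 1.87 against 10.0 ± 4.07 CPM, log2 1.10, edgeR adjusted p = 0.00345).

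Among members with none of these features, 27 of 53 were tested, and 12 rose (44.4%) and 5 fell (18.5%), against 20.1% and 16.2% of all genes tested. Lockd, which lies 3579 bases from the cell cycle inhibitor gene Cdkn1b, had 73.9, 97.7 and 117 CPM in 2H-11, while SVEC4-10 had 39.7, 46.1 and 53.1 CPM (log2 0.97, SE 0.21, edgeR adjusted p = 0.00114). Cdkn1b went the other way, with 14.2 ± 2.82 against 31.0 ± 8.25 CPM (log2 -1.22, edgeR adjusted p = 0.000486). Gm14005 had 61.8 to 66.6 CPM in the 2H-11 libraries and 30.2 to 35.6 CPM in SVEC4-10 (log2 0.82), while Bcl2l11, a proapoptotic gene 15772 bases away, fell by 1.25 on the log2 scale (edgeR adjusted p = 0.00846). 2700033N17Rik and the homeobox gene Meis2, 379 bases away, were both lower, by -1.47 and -0.94. These pairs are examples, and the share of members with a called nearest gene was not counted. For D5Ertd605e, which rose, the nearest gene Pan3 was not called (log2 -0.13, edgeR adjusted p = 0.793). Nor was Sec31a, nearest to 5430416N02Rik, which fell (log2 0.15, edgeR adjusted p = 0.609). Dubr, a lncRNA known from muscle differentiation, had 10.6, 11.2 and 17.1 CPM in 2H-11, while SVEC4-10 had 2.20, 3.04 and 4.17 CPM (log2 1.85, SE 0.32, edgeR adjusted p = 0.000153). Bvht, known from cardiac commitment, had 11.7 ± 1.88 against 6.69 ± 0.08 CPM (log2 0.71, edgeR adjusted p = 0.0479). Its call was lost when any library other than 2H-11 replicate 3 was left out (adjusted p = 0.051 to 0.235). It was also lost with a replicate block (0.0598), with DESeq2 (0.0788) and with no filter (0.118).

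A list of 64 widely studied mouse lncRNAs was looked up by symbol, so one that the table holds under another symbol was missed. Mir100hg and Oip5os1 (Cyrano) of the list were not matched. Members 3110039I08Rik, which contains Mir100, and 1700020I14Rik, 2010 bases from Oip5, may be these genes under other symbols. The counts that follow are of symbol matches alone and may be too low. By symbol, 22 were matched in the table and 20 are members. Of these members, 17 were tested, and 5 rose and 2 fell. Apart from the hosts and Bvht already described, Tug1 and Hotairm1 were tested and not called. Tug1, which starts head to head with Morc2a, had 9.01, 9.86 and 15.3 CPM in the 2H-11 libraries and 15.4, 16.0 and 18.7 CPM in SVEC4-10 (log2 -0.64, edgeR adjusted p = 0.0686). Hotairm1, a myeloid-associated lncRNA of the HoxA cluster, had 22.4 to 35.0 CPM against 25.1 to 32.0 CPM, and the groups overlapped. Its locus in the table was also tied to Gm15050. Lncpint was at 0.47 ± 0.29 and 1.01 ± 0.34 CPM and was not tested. Snhg11, which is in the list but is not a member, had 3.72 ± 0.58 against 0.89 ± 0.83 CPM (log2 1.91, edgeR adjusted p = 0.00852). Among members of at least 10 CPM, the 3 with the smallest difference were Gm17501, Snhg15 and Ptpmt1. Ptpmt1 had 29.6 ± 3.84 against 29.4 ± 1.87 CPM.

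The 66 loci known only by a NONCODE identifier had a median of 1.28 CPM, and 24 were tested. Of these, 6 rose and 6 fell (25% each), against 20.1% and 16.2% of all genes tested. The most abundant were NONMMUG020673 and NONMMUG005081. NONMMUG020673 had 97.9, 107 and 79.8 CPM in 2H-11, while SVEC4-10 had 233, 115 and 185 CPM (log2 -0.99, SE 0.21, edgeR adjusted p = 0.000971). NONMMUG005081 had 109 ± 10.9 against 65.3 ± 37.4 CPM and was not called (edgeR adjusted p = 0.0612). It was called in 6 of 17 other settings, among them limma-voom (0.0302) and the fit without SVEC4-10 replicate 1 (log2 1.08, adjusted p = 0.000996). Of those that rose, NONMMUG008254 had 4.09, 7.72 and 8.04 CPM against 0.70, 0.83 and 1.65 CPM (log2 2.64, SE 0.45). NONMMUG019647 had 70.6 ± 5.09 against 31.5 ± 5.56 CPM (log2 1.05, edgeR adjusted p = 0.00051). Summed over the 66 loci, the level was 459 ± 35.1 and 433 ± 105 CPM (SD, n = 3 each), and the groups overlapped.

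RefSeq promoter windows, 250 bases before to 50 bases after a start, were found for 128 members (151 windows) and searched on both strands. GGGCGG, the core of the GC box, was present in 57% of the member windows and in 35.7% of all 32851. CCGGAAG, an ETS motif, was present in 20.5% and 8.86%, and CACGTG in 12.6% and 7.15%. TATAAA was present in 13.2% and 13.6%, and TGACTCA in 4.64% and 5.2%. Of 26 members with a window that rose, GGGCGG was found in 17 and CCGGAAG in 7. Of 9 that fell, they were found in 7 and 1. Windows were matched to members by symbol. Those of Trmt61b, counted among the members that fell with GGGCGG, and of Ptpmt1 may therefore belong to the protein-coding genes of these symbols.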

How the data were processed

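The authors deposited a gene table with raw read counts of 6 libraries. Beside them the authors give CPM, each count divided by its library's total and scaled to 1e6. Trizol RNA and the Oxford Nanopore kit SQK-RNA002 were used, per the labels' protocols. Builds mm10 and GRCm38 come from the submitters' processing notes. The sources used here do not give the aligner, the counter, any filter, or whether strand was used. Lines that were broken and held no gene name (13) were dropped. The deposited CPM differed from values recomputed from the counts by at most 4.8e-06.

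Counts of all genes were tested with edgeR 4.0.16 (filterByExpr with a minimum count of 10 and total of 15, TMM factors, quasi-likelihood test, Benjamini-Hochberg adjustment over all genes tested, threshold 0.05), in R 4.3.3. The script was tested on simulated counts. The biological coefficient of variation was 20.2%. SDs are over 3 libraries. Single values were compared by exact two-sided permutation. The precision of a low value is set by its library's total, and intervals cover counting error only. Coordinates and gene types came from GENCODE M21, copies from blastn 2.17.0 (at least 300 bases and 95% identity), sequences from RefSeq tables on GRCm38.p6. NONCODE loci have no position here.

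The study of this gene type and the gene lists were chosen with earlier results of these data known. The gene type comes from the authors' table, and whether it depended on reads of these libraries is not given. Named were the 10 most abundant members, the 8 largest increases and decreases among called members without overlap and at least 2 CPM, members with at least 20 counts in 1 line and 0 in the other, the 3 smallest differences of at least 10 CPM, and members with a symbol. Alternatives were DESeq2 1.42.0, limma-voom (limma 3.58.1), a replicate block, other scalings and filters, a 2-fold test, thinning and leaving out each library. A few neighbouring genes are not reported here.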

Additional observations from a re-analysis of the deposited data

How the results depend on the processing

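The 42 higher and 18 lower members became 37 and 16 with DESeq2, 42 and 18 with limma-voom, 46 and 16 with library size alone, 39 and 17 after thinning to the smallest library, and 34 to 45 higher and 16 to 23 lower when 1 library was left out. A test against a 2-fold change called 15 higher and 6 lower, no filter gave 37 lower (56 higher) and a filter of 20 counts in 3 libraries gave 11 lower (34 higher). With the replicate number as a block, 39 were higher and 15 lower. Same-numbered libraries correlated at -0.0126, 0.0522 and -0.00279, which shows no pairing by number. Counting noise can hide a shared run or day, so these values do not settle whether one was shared. Of the 60 called members, 41 (29 higher, 12 lower) kept their call in every setting in which they were tested, other than the 2-fold test, 21 kept it there, and the direction of none reversed in 17 settings. The summed difference of 1085 CPM was 634 without 1110038B12Rik, 1233 with the totals of Ensembl identifiers as denominator, and 946.5 to 1310 when 1 library was left out.

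Of the members named and not called, 5 were called in 1 to 6 other settings (Gas5, Zfas1, Snhg1, Snhg17 and NONMMUG005081). Signs changed only for members not called. Without a filter, Gm17501 was at -0.042 and Snhg15 at -0.033. With 1 library left out, Gm17501 ranged from -0.304 to 0.309, Snhg15 from -0.257 to 0.256, 2900076A07Rik from -0.276 to 0.057, and Snhg18 from -0.075 to 0.240. With library size alone or factors from Ensembl identifiers, Ptpmt1 was at 0.011 and 0.036, and 2900076A07Rik at 0.024 and 0.050. Depth limits members of few CPM: 108 could not be tested, and 3 libraries a line from possibly shared cultures limit every p-value.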
